A study of Mus musculus with 12 samples.

Results

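Rhox5 and 5 genes of the Bex/Tceal family (Bex1, Bex2, Bex4, Tceal1 and Tceal8) are 6 X-linked genes of the 18327 named on the array. They were chosen by measured values of these embryos that were already known, among them high Rhox5 and Tceal8 in clones beside male fertilised embryos, so differences between clones and fertilised embryos are given below as a description. Each had 1 probe, named through its RefSeq transcript, and all 6 passed the filter on dim probes, along with 13536 other named genes. A probe passed when 3 or more of the 4 embryos in some class gave a signal well above background, so a gene seen in a single class could pass through that class alone. Tceal1 passed through the IVF class alone, and Bex2 only through the clone classes.

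Expression was read in 12 single mouse morulae, the ball of cells that precedes the blastocyst, with 1 single-colour Agilent array for each embryo. All embryos were of the (C57BL/6 x DBA/2) F1 strain and were cultured for 72 h from activation. In vitro fertilisation (IVF) gave 2 male embryos (replicates 1 and 3) and 2 female embryos (replicates 2 and 4), which received no treatment. The other 8 embryos were male clones made from nuclei of Sertoli cells, the supporting cells of the seminiferous tubule, and were injected at the pronuclear stage, 6 to 7 h after activation, with a control siRNA (siCont, 4 embryos) or an siRNA against Xist (siXist, 4 embryos). Xist is the noncoding RNA that silences the X chromosome from which it is made.

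Rhox5, earlier called Pem, is a homeobox gene of the X-linked Rhox cluster. It is expressed in Sertoli cells and in extraembryonic tissue, is repressed by DNA methylation in many somatic cells, and has been reported to be expressed mainly from the paternal X in preimplantation embryos, which XY embryos lack. Bex genes encode small adaptor proteins, some of which bind the neurotrophin receptor p75, and Tceal genes encode proteins related to transcription elongation factor A. Bex and Tceal genes lie near each other on the X, beside the Armcx and Gprasp genes, and several of their promoters have been reported to share a conserved motif.

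The promoters are shown because 5 of the 6 genes had their lowest group mean in male IVF embryos, and they show which of those genes share sequence near the start. All 6 members matched a RefSeq promoter (GRCm38.p6), and each line gives 70 bases before and 30 bases after the start site, 5′ to 3′ on the gene's own strand. Capitals mark CACGTGAC, or, for Rhox5, the match to CCGGAAG, which reads CTTCCGG on the printed strand.
Rhox5, chrX:37754538-37754637, plus strand: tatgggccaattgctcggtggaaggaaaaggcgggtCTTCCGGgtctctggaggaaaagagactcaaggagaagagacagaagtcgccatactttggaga
Bex1, chrX:136215484-136215583, minus strand: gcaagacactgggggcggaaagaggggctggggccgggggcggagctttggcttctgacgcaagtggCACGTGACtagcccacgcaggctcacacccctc
Bex2, chrX:136068207-136068306, minus strand: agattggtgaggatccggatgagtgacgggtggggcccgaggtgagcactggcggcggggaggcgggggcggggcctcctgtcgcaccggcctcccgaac
Bex4, chrX:136138926-136139025, plus strand: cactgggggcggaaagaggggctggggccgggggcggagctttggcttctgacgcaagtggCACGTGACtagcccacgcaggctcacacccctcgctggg
Tceal1, chrX:136707912-136708011, plus strand: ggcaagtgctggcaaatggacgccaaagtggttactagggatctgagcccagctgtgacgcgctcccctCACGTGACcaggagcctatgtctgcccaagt
Tceal8, chrX:136172222-136172321, minus strand: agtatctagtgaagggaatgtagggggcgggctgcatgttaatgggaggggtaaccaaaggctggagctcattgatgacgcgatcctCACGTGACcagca

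Motifs were searched on both strands of the whole 300-base windows (250 bases before to 50 after the start). CACGTGAC, which holds the E-box core bound by basic helix-loop-helix factors and was picked after the sequences had been read, was found in Bex1, Bex4, Tceal1 and Tceal8. Its first base lay 3, 9 and 1 bases before the start of Bex1, Bex4 and Tceal1, and 18 bases after that of Tceal8. Of all 32851 promoters, 2.25% held it, and of the 1223 X-linked promoters 3.35% did. Bex2 and Rhox5 have no such match in this window. Any bearing of the motif on the levels was not tested.

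GGGCGG, the core of the GC box read by Sp factors, was found in Bex1, Bex2, Bex4 and Tceal8, against 35.7% of all promoters. CCGGAAG, a core letter run of Ets factor sites, was found in Rhox5 and in 8.86% of all promoters, and TATAAA in Bex2 and in 13.6%. No 2 of these matches overlapped in a member. Bex1 and Bex4 had nearly the same promoter, equal at 288 of 294 bases (98.0%) without gaps when shifted by 6 bases. Bex2 was closest to Bex3, a gene of the family that is no member, with 223 of 263 bases equal (84.8%). CG pairs numbered 5 in the window of Rhox5, 8 in Bex1, 12 in Bex2, 9 in Bex4, 8 in Tceal1 and 10 in Tceal8, beside a median of 7 over all promoters.

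Levels below are log2 intensities relative to the 75th percentile of the embryo's own array, so that 0 is the signal of a probe at that percentile. They compare embryos for the same probe, and no gene is ranked against another by them. The share of the 41174 probes that was well above background ran from 50.8% to 61.4% over the arrays, and the 75th percentile from 507 to 1133 intensity units. All 6 general morula genes (Pou5f1, Cdh1, Krt8, Krt18, Tfap2c and Dppa3) were well above background in each of the 12 embryos. Each of the 3 classes (IVF, siCont, siXist) lay on its own slide and scan, so slide and class cannot be told apart for clones against IVF or for siXist against siCont. Female and male IVF embryos shared a slide.

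Rhox5 was low in the male IVF embryos and high in every other group. Its level was -2.27 in male 1 and -7.82 in male 3, where it was not well above background, and 5.43 and 5.09 in females 2 and 4. In siCont clones 1 to 4 it was 5.49, 2.58, 5.40 and 6.23. In siXist clones 1 to 4 it was 6.81, 7.14, 5.68 and 7.23. Every female and every clone therefore lay above both males, and the siXist clones lay above both females. The group means ran from siXist (6.72 ± 0.72, SD, n = 4) through female IVF (5.26 ± 0.24, n = 2) and siCont (4.92 ± 1.61, n = 4) to male IVF (-5.04 ± 3.93, n = 2), and the 95% intervals of the differences among the first 3 all included 0.

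**Figure D1:**
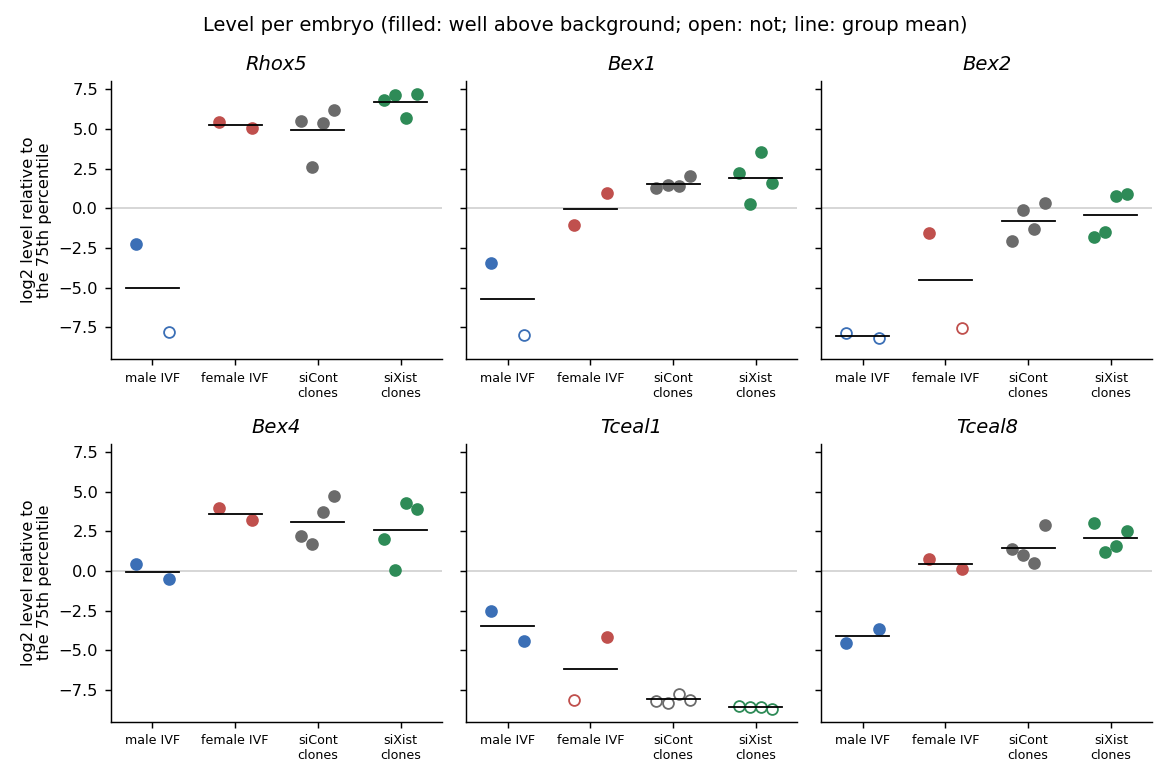
Level of each member in the 12 embryos (log2 intensity relative to the 75th percentile of the array), by group, with filled points well above background, open points not, and a line at the group mean. Rhox5, Bex1, Bex2, Bex4 and Tceal8 have their lowest group mean in the male IVF embryos, whereas Tceal1 is well above background in 3 of the 4 IVF embryos and in 0 of the 8 clones.

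Among the Bex genes, Bex1, whose protein binds p75, was -3.45 in male 1 and -7.98 (not well above background) in male 3, and -1.02 and 0.95 in the females. It was 1.27, 1.48, 1.42 and 2.07 in siCont clones 1 to 4. The siXist clones gave 2.23, 0.25, 3.54 and 1.60. All clones and females lay above the males, and all siCont clones also lay above the females. The spread among siXist clones (SD 1.37) was wider than among siCont clones (SD 0.35).

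Bex2, whose protein has been reported to bind the LIM domain protein Lmo2, was seen in all clones and in a single IVF embryo. It was not well above background in either male (-7.86 and -8.20) or in female 4 (-7.51), and stood at -1.58 in female 2. The siCont clones gave -2.05, -0.10, -1.31 and 0.37, and the siXist clones -1.83, -1.48, 0.81 and 0.92. Female 2 fell inside the range of the 8 clones, and the other IVF embryos lay far below it.

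Bex4, which shares most of its promoter letters with Bex1, was well above background in every embryo. It was 0.42 and -0.48 in the males and 3.97 and 3.24 in the females. The siCont clones gave 2.21, 1.68, 3.72 and 4.71, and the siXist clones 2.01, 0.05, 4.30 and 3.89. Only siXist clone 2 reached down into the range of the males, and the females lay inside the range of the clones.

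Of the Tceal members, Tceal8 was -4.54 and -3.67 in the males and 0.77 and 0.15 in the females. It was 1.41, 1.03, 0.53 and 2.88 in siCont clones 1 to 4. The siXist clones gave 3.06, 1.23, 1.61 and 2.50. Tceal8 was well above background in all 12 embryos, the males lay below all others, and all siXist clones lay above both females.

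Tceal1, first described as a phosphoprotein related to transcription elongation factor A, ran the other way. It was -2.51 and -4.43 in the males, -4.17 in female 4 and -8.13 (not well above background) in female 2. The siCont clones gave -8.20, -8.34, -7.72 and -8.10, and the siXist clones -8.50, -8.58, -8.54 and -8.70. No clone was well above background for Tceal1, so its 2 clone groups have no order, while 3 of the 4 IVF embryos were.

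Clones were compared with male IVF embryos, the group of their own sex. Clones against IVF embryos were treated as the comparison by which the members were chosen, although the rule for the members names no contrast, so differences are given with their SE and no test. In siCont clones, Rhox5 was higher than in males by 9.97 ± 1.39 (log2, SE), which was at least 594-fold. For each bound, a signal not well above background was raised to the lowest signal that was well above it on that array. Such a bound concerns those dim signals only and leaves out the spread between embryos. Bex1 was higher by 7.27 ± 1.20 (at least 86.8-fold), Bex2 by 7.25 ± 1.47 (at least 42.4-fold), Tceal8 by 5.56 ± 0.71 (47.3-fold) and Bex4 by 3.11 ± 1.19 (8.63-fold). Tceal1 was lower by at least 5.66-fold. The 5 genes that were higher did not overlap between the groups, as 12.1% of the 19037 features fitted also did not in that direction. Tceal1 did not overlap in the other direction, as 9.91% of features did not. Tceal1 passed the filter through IVF embryos alone and Bex2 through clones alone, so their differences between clones and males follow in part from the filter.

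With the siXist siRNA the same contrast gave 11.76 ± 1.39 for Rhox5 (at least 2059-fold), 7.62 ± 1.20 for Bex1 (at least 110-fold), 7.63 ± 1.47 for Bex2 (at least 55.0-fold) and 6.20 ± 0.71 for Tceal8 (73.5-fold). Bex4 was higher by 2.59 ± 1.19, with groups that overlapped, and Tceal1 was lower by at least 8.48-fold. Non-overlap was seen in 7.33% of all features upward and in 15.8% downward. Both contrasts use the same 2 male embryos, and for Rhox5 and Bex1 only male 1 gave a signal well above background. Without male 3 the difference of siCont clones from males was therefore smaller, 7.19 for Rhox5 and 5.01 for Bex1, and that of siXist clones was 8.99 and 5.35. The folds given for both genes thus depend on male 3. Without male 1, siCont clones stood 12.74 (Rhox5) and 9.53 (Bex1) above a single signal that was not well above background.

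Against the female IVF embryos the clones stood closer than against the males, though not equally for all members. The difference of siCont clones from females was -0.33 ± 1.39 for Rhox5 (95% interval -3.43 to 2.76), -0.52 ± 1.19 for Bex4 (-3.17 to 2.13), 1.00 ± 0.71 for Tceal8 (-0.58 to 2.58) and 1.59 ± 1.20 for Bex1 (-1.08 to 4.26). Bex2, measured in only 1 female, was higher in siCont clones by 3.77 ± 1.47 (95% interval 0.5 to 7.04). Its bound, at least 7.26-fold, leaves out the spread between embryos. Of the members, Bex1 alone did not overlap between siCont clones and females, in a direction in which 9.21% of all features did not. For siXist clones the differences from females were 1.46 ± 1.39 (Rhox5), 1.94 ± 1.20 (Bex1), 4.15 ± 1.47 (Bex2, at least 9.43-fold), -1.05 ± 1.19 (Bex4) and 1.64 ± 0.71 (Tceal8). The 95% interval was 0.88 to 7.42 for Bex2 and 0.05 to 3.22 for Tceal8, and those of Rhox5, Bex1 and Bex4 held both signs. Rhox5 and Tceal8 then lay above both females (6.83% of all features), and Tceal1 has no order against female 2, where it was not well above background either.

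The donor nuclei came from Sertoli cells, in which Rhox5 is expressed. Of 18 Sertoli markers with a probe, 10 to 13 were well above background in each IVF embryo, 11 in each siCont clone and 11 to 14 in each siXist clone. Their summed level (1 is the 75th percentile) ranged from 5.37 to 6.76 in IVF embryos, 4.81 to 14.0 over the siCont clones and 4.20 to 16.6 over the siXist clones. Of the 13 kept markers, 8 were higher and 5 lower in siCont clones than in males, and 7 and 6 in siXist clones (median 0.17 in both). Amh and Inha, hormone genes expressed in Sertoli cells, were not well above background in any of the 12 embryos, and Wt1 was in 1, an siXist clone. Sox9, the Sertoli determinant, was above background in all IVF embryos and 6 clones, with group means of 0.62 in males, -0.38 in females, -2.31 in siCont and -5.38 in siXist clones. Cldn11, a tight junction gene, was above background in 0 IVF embryos, 1 siCont clone and 4 siXist clones. Clu and Trf were above background in all 12 embryos. Clu averaged -2.53 in males, -3.29 in females, -1.48 in siCont and -1.50 in siXist clones, and Trf -4.53, -4.45, -3.92 and -3.03. The part of Sertoli genes in the Rhox5 levels was not tested.

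Trophectoderm, the outer layer from which extraembryonic tissue arises, was also followed, since Rhox5 is expressed in extraembryonic tissue. The summed level of 13 trophectoderm genes was 262 to 278 in males, 167 to 327 in females, 237 to 357 in siCont clones and 173 to 430 in siXist clones, and 0 of them were called in siXist against siCont clones or in females against males. Cdx2, the trophectoderm determinant, averaged 4.75 in males and 4.69 in females, -1.05 in siCont and 2.85 in siXist clones. Of the 13 genes, 5 stood higher and 8 lower in siCont clones than in males, with a median difference of -0.21. The largest rises were 6.46 ± 3.71 for Gata2 (at least 20.5-fold), 5.18 ± 1.84 for Elf5 (at least 16.0-fold) and 0.92 ± 0.52 for Krt18. These bounds leave out the spread between embryos. The 95% interval was -1.81 to 14.73 for Gata2 and -0.23 to 2.07 for Krt18, and both genes overlapped between the groups. Eomes was lower by 5.62 ± 1.21 (at least 23.9-fold), and was well above background in both males, both females, 1 siCont clone and 1 siXist clone. None of these passed the limma threshold (adjusted p from 0.184 to 0.639). Gata2 and Elf5 were each well above background in 3 of the 4 siCont clones and in neither male. Elf5 was also well above background in both females (mean -2.41, beside -2.18 in siCont clones) and in 1 siXist clone. Inner cell mass and pluripotency genes (7 with a probe) summed to 131 in both males, 131 to 135 in females, 54.2 to 111 in siCont clones and 70.2 to 111 in siXist clones. The part of these markers in the members' levels was not tested. In whole embryos, fewer cells of a type and less RNA per cell cannot be told apart.

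Sex differences were tested in the embryos that were not cloned. Female minus male was 10.3 ± 1.60 for Rhox5 (SE; 95% interval 6.73 to 13.88; at least 748-fold), the second of 434 X-linked features after Xist and the second of all 19037. Benjamini-Hochberg adjustment over all features left it short of the 0.05 threshold in limma (adjusted p = 0.184). The 748-fold bound, like each bound in this paragraph, leaves out the spread between embryos. The lower end of the Rhox5 interval is a smaller fold. Female minus male was 5.68 ± 1.38 for Bex1 (at least 28.8-fold), 4.56 ± 0.82 for Tceal8, 3.63 ± 1.37 for Bex4, 3.48 ± 1.69 for Bex2 (at least 3.10-fold, from 1 measured female) and -2.68 ± 1.05 for Tceal1 (lower by at least 3.02-fold, from 1 measured female). Their limma adjusted p-values were 0.327 for Tceal8 and 1.00 for the rest. The 95% interval of Bex2 was -0.29 to 7.25. For Tceal1, female 4 (-4.17) lay above male 3 (-4.43), so females and males overlapped. Single embryos moved these values. Bex1 stood at 3.42 without male 3, and Bex2 at 0.52 without female 2 and 6.44 without female 4. Tceal1 stood at -0.70 without female 2, -4.66 without female 4 and -1.72 without male 1.

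None of the 6 members passed the threshold, where 0.0158% of all features did (3 of 19037), and 5 of 6 had an unadjusted limma p under 0.05, all but Bex2, where 1.53% of all features did. Rhox5, Bex1, Bex4 and Tceal8 were higher in both females than in both males, as were 16.9% of all features and 48.4% of X-linked ones. The median over X-linked features was 0.60 and that over all features 0.03. This comparison shares the male embryos with the comparison of clones and IVF embryos, so low male values enter both, and it is no independent support for them. Values of these males also entered the choice of the members, so the members' p-values for females against males are biased. The count under 0.05 therefore cannot be read against the share of all features. With 2 embryos in a group the call for Rhox5 depended on single values: without male 1 the difference was 13.08 (limma adjusted p = 0.0179), measured against male 3 alone, whose signal was not well above background, and with signals not well above background raised to a floor it was 9.19 (limma adjusted p = 0.0476).

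**Figure D2:**
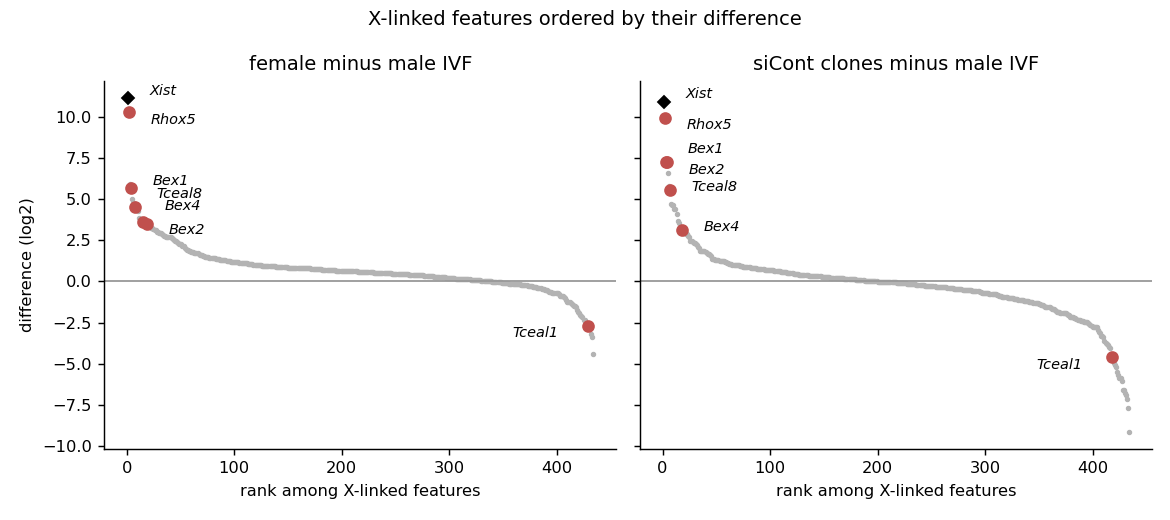
Differences of the 434 X-linked features (log2, vertical) in order of size (horizontal rank), for female minus male IVF embryos (left) and siCont clones minus male IVF embryos (right), with the members in red and Xist as a diamond. Xist and Rhox5 take the 2 highest ranks in both panels, which share the male embryos, and Tceal1 lies near the lower end. The right panel shows a comparison by which the members were treated as chosen. Tceal1 passed the filter through IVF embryos alone, so its place there follows in part from the filter.

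Xist set the frame for the siRNA comparison. On its brightest probe Xist was -4.92 and -7.04 (not well above background) in the males, 5.17 and 5.24 in the females, 5.65, 4.74, 4.94 and 4.56 in siCont clones 1 to 4, and 1.72, 1.36, 2.18 and 2.45 in siXist clones 1 to 4. The siXist clones lay below all siCont clones, by 3.04 ± 0.48 on the log2 scale (8.25-fold), with a limma adjusted p of 0.11. On each of its 3 dimmer probes the siXist and siCont clones overlapped, and these did not all run the same way. Their means were -2.27 in siCont and -5.17 in siXist clones on the first, -0.44 and -0.40 on the second, and -3.37 and 0.60 on the third, where 2 siCont clones and all 4 siXist clones were well above background.

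After injection of the Xist siRNA, no member differed from its level in siCont clones by more than the test could resolve. The difference siXist minus siCont was 1.79 ± 1.13 for Rhox5 (SE; 95% interval -0.73 to 4.32; limma adjusted p = 0.48), and 3 of the 4 siXist clones lay above all siCont clones. It was 0.64 ± 0.58 for Tceal8 (-0.66 to 1.93; limma adjusted p = 0.62), 0.38 ± 1.20 for Bex2 (-2.29 to 3.05; 0.899), 0.35 ± 0.98 for Bex1 (-1.83 to 2.53; 0.885) and -0.52 ± 0.97 for Bex4 (-2.69 to 1.64; 0.819). Tceal1 was not well above background in any clone, so its values give no comparison here. In limma, 0 of the other 5 members were called, as 0.0105% of all features were (2 of 19037), and 0 had an unadjusted p under 0.05, as 13.9% of all features had. The intervals do not show that the levels were alike: for Rhox5 they reach a rise of 4.32 and for Bex2 one of 3.05. The median over all features was -0.21 in this contrast and 0.93 with the authors' array constants, under which Bex4 changed sign.

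**Figure D3:**
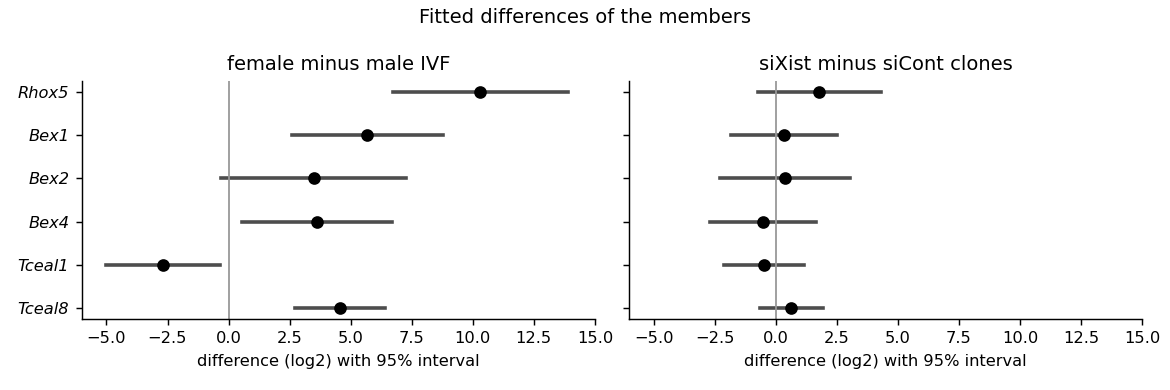
Fitted differences of the 6 members (points, log2) with 95% intervals (lines), female minus male IVF on the left and siXist minus siCont clones on the right. The right-hand intervals all include 0 (for Tceal1 both clone groups are at background), and on the left those of Rhox5, Bex1, Bex4, Tceal1 and Tceal8 do not, although none was called after adjustment over all features.

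**Figure D4:**
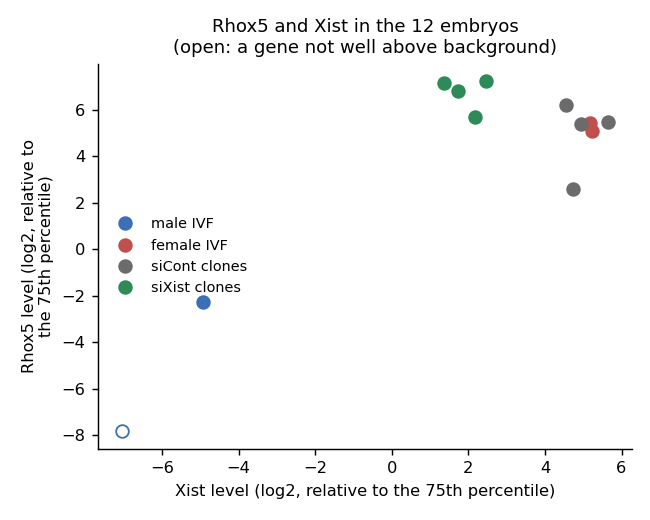
Rhox5 level (vertical) against Xist level on its brightest probe (horizontal) in each embryo, both log2 relative to the 75th percentile of the array, with an open point where a gene was not well above background. The 4 siXist clones stand at Xist levels of 1.36 to 2.45 with Rhox5 at 5.68 to 7.23, and the 4 siCont clones at Xist levels of 4.56 to 5.65 with Rhox5 at 2.58 to 6.23.

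The clones did not rank alike for all members. Among the 8 clones, siXist clone 3 had the highest Bex1 and the second highest Bex2 and Bex4, but the fifth highest Rhox5. siXist clone 2 had the lowest Bex1 and Bex4 and the second highest Rhox5. siCont clone 4 had the highest Bex4, the second highest Tceal8 and the fourth highest Rhox5. siCont clone 2 had the lowest Rhox5 and was seventh for Bex4 and Tceal8. Rhox5 and the Bex genes thus placed siXist clones 2 and 3 in opposite order.

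Likeness was measured as Pearson's r over the 12 embryos against 12991 features with an official symbol, and it is a description, since the embryos fall into groups and the males lie below all others for Rhox5, Bex1 and Tceal8. The closest to Rhox5 were the autophagy gene Atg10 (0.846), 1810030O07Rik (0.843, X-linked) and Xist (0.825). For Bex1 they were Denn2b (0.928), Bnipl (0.836) and Atg10 (0.836), and for Tceal8 Tmem205 (0.891), Atg10 (0.882) and the family gene Tceal9 (0.847). Atg10 was not well above background in either male and averaged 0.50 in females, 2.46 in siCont and 0.95 in siXist clones. Bex4 was closest to Saxo2 (0.828), the family gene Bex3 (0.800) and the collagen gene Col9a3 (0.790). Among the genes most like Bex2 were Ccdc120 (0.970, X-linked) and the prostaglandin reductase gene Ptgr1 (0.917). Tceal1 was closest to the small GTPase gene Rhoj (0.968), the defensin gene Defb7 (0.968) and Serpina3m (0.945), and neither Rhoj nor Defb7 was above background in a clone.

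The other genes of the family were taken from a list of 7, of which 4 had a probe and were kept. Bex3, whose protein binds p75 and takes part in cell death, was -3.69 and -2.62 in the males and 1.33 and -0.14 in the females. The siCont clones stood at -1.32, -0.34, -1.22 and 3.23, and the siXist clones at 1.20, -1.13, 3.31 and 1.49. Both males lay below every other embryo for Bex3. Tceal9 was -6.04 (not well above background) and -3.46 in the males, and -0.53 and -4.30 in the females. The siCont clones stood at 0.04, -0.34, -2.79 and 1.86 for Tceal9, and the siXist clones at 2.07, -0.14, 3.29 and 1.92. All clones lay above both males for Tceal9, and the females overlapped with the males. Tceal7 was dim in both males (-7.98 and -8.25) and above background in both females (-4.03 and -3.59), in 3 siCont and in 3 siXist clones. Tceal3 varied least, from -5.72 to -3.95 over 11 embryos, since its spot was marked as an outlier on the array of siXist clone 4 and left out.

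In limma 0 of the 4 were called in any comparison with the males or between the clone groups. On the probes kept, all 4 were higher than in males in females (median difference 3.05), in siCont clones (3.84) and in siXist clones (4.64). The medians over all features were 0.03, -0.02 and -0.22. For Tceal3 the rise in siXist clones was 0.27 ± 0.46, with groups that overlapped. A dimmer Tceal3 probe, which failed the filter, averaged -6.98 in males, -7.31 in females, -7.23 in siCont and -6.81 in siXist clones. The limma adjusted p-values for Tceal9 were 0.407 in siCont and 0.192 in siXist clones against males, where 0.0946% and 0.11% of all features were called. With the authors' array constants Tceal3 turned lower in females and in siCont clones than in males. siXist minus siCont was 2.09 ± 1.19 for Tceal9, 1.13 ± 1.15 for Bex3, 0.47 ± 1.82 for Tceal7 and -0.59 ± 0.38 for Tceal3 (median 0.80 against -0.21 over all features; limma adjusted p from 0.441 to 0.92). Thus 3 of these 4 had higher siXist means, with clone groups that overlapped in each. The count was 2 of 4 without siXist clone 3 (median -0.06), siCont clone 1 (0.05) or siXist clone 1 (0.54), and 4 of 4 with the authors' table (1.93). The median was 0.37 without siCont clone 3, 1.27 without siCont clone 2, and 1.54 without siCont clone 4 or siXist clone 4.

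**Figure D5:**
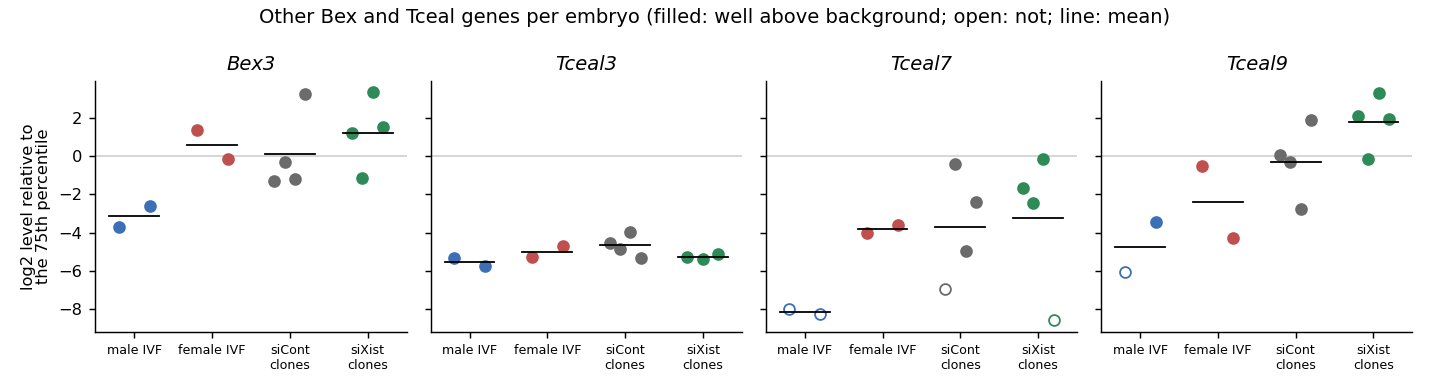
Level of Bex3, Tceal3, Tceal7 and Tceal9 in each embryo (log2 intensity relative to the 75th percentile of the array), by group, with filled points well above background, open points not, and a line at the group mean (Tceal3 has 3 siXist clones). Male IVF embryos are at -2.62 or below in each panel, and Tceal3 stays between -5.72 and -3.95 throughout.

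Of 41 other Rhox genes, homeobox genes of the same cluster, 6 had a probe and 5 were kept. Several exist in near-identical copies, so a probe may read more than 1 of them. Female minus male was 5.91 ± 2.02 for Rhox3a, 3.34 ± 1.99 for Rhox9, 3.27 ± 3.24 for Rhox2a, 2.50 ± 3.07 for Rhox6 and -0.08 ± 0.45 for Rhox4e. siCont clones minus males gave 0.11 ± 1.75, 1.22 ± 1.72, -2.35 ± 2.80, 1.88 ± 2.66 and -0.18 ± 0.39 for the same genes. Rhox2a, Rhox3a and Rhox6 were each well above background in only 1 of the 4 siCont clones. Of the 2 males, 1, 1 and 0 were well above it for these genes. Their differences, and the medians below, thus rest in part on signals at background. The median of the 5 was 0.11 in siCont clones and 0.81 in siXist clones against males, where Rhox5 stood at 9.97 and 11.76. Over the alternatives these medians ran from -1.34 (the authors' table) to 0.78 (a floor under dim signals) in siCont clones, and from -0.22 (without siXist clone 1) to 1.92 (without male 3) in siXist clones. None was called in limma in these comparisons or between the clone groups, where Rhox6 (2.26 ± 2.17) and Rhox9 (2.01 ± 1.40) differed most, and Rhox11 was not well above background in any embryo.

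Neighbours of the family on the X had median differences near 0. Of 14 Armcx, Gprasp and adjoining genes 6 were kept, with medians of 0.23 (female minus male), -0.27 (siCont minus male) and -0.31 (siXist minus siCont), and 0 were called in limma. Bhlhb9 differed most against the males, at 4.49 ± 1.89 in females and 4.71 ± 1.64 in siCont clones against males. Morf4l2, Armcx6, Armcx5, Gprasp1 and Gprasp2 had female minus male differences between -2.05 and 0.96. Among X-linked genes with reported parent-of-origin expression 6 were kept, and Xist was the single gene called in limma, for females (adjusted p = 0.000138), siCont clones (4.18e-05) and siXist clones (0.000651) against males. Fthl17e, a ferritin-like gene reported to be paternally expressed, was higher in females by 3.13 ± 1.33 and differed from males by -0.10 ± 1.15 in siCont clones. The rest of that list had female minus male differences of 3.43 ± 1.63 (Tsix, the antisense partner of Xist), -1.26 ± 1.92 (Fthl17a), -0.91 ± 2.13 (Xlr3c) and -0.13 ± 3.45 (Xlr4b).

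Genes reported to act on Rhox5 were followed as a list of 14 chromatin and transcription factors, 13 of them kept. None was called in limma in any of these comparisons, and their median was -0.46 in siXist minus siCont clones and 0.17 in siCont clones minus males. The 3 with the largest siXist minus siCont differences were DNA methyltransferase genes, Dnmt3b (-1.35 ± 0.67, limma adjusted p = 0.408, with 2 siXist embryos measured), Dnmt3a (1.20 ± 0.58, adjusted p = 0.384) and the cofactor Dnmt3l (-0.95 ± 0.34, adjusted p = 0.312). The siXist clones lay above all siCont clones for Dnmt3a and below all for Dnmt3l, and the share of all features that did so is not given. In this contrast 13.9% of all features had an unadjusted limma p under 0.05, and slide and class cannot be told apart. Dnmt1, which maintains methylation, differed by -0.09 ± 0.41.

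Of the reported targets of Rhox5, Ins2, an insulin gene, was kept and differed by -0.80 ± 0.30 in siXist minus siCont clones (limma adjusted p = 0.313), while Unc5c did not pass the filter. Ins2 was dim, with means of -4.99 in siCont and -5.79 in siXist clones. The lowest signals well above background were -5.60 to -6.26 on the siCont arrays and -6.38 to -6.76 on the siXist arrays. Tcea1, which encodes the elongation factor to which Tceal proteins are related, differed by -0.91 ± 0.37 (limma adjusted p = 0.328) and Tcea3 by 0.72 ± 0.52. The reported partners of Bex proteins, Ngfr (the p75 receptor), Lmo2, Ldb1 and Ywhae, gave -0.42 ± 0.32, -1.09 ± 0.87, 0.98 ± 0.58 and 0.29 ± 0.35 in the same contrast, and none was called. Lmo2 was well above background in 1 of the 8 clones and in 3 of the 4 IVF embryos.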

How the data were processed

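Per the file headers, Agilent Feature Extraction 10.5.1.1 wrote the deposited intensity files, on a grid of build mm9. Per the labels' protocols, RNA of a single embryo was amplified in repeated rounds and labelled with Cy3. Levels are log2 processed signal minus the array's 75th percentile over non-control probes. Outlier-marked spots were removed, the mean was taken over a probe's spots, and 0 spots were saturated. The filter kept 24839 of 41174 probes. RefSeq (GRCm38.p6) accessions named 26888 probes (65.3%), and the brightest kept probe stood for a gene, which gave 19044 features, 19037 of them with a value in every group. limma 3.58.1 (R 4.3.3) fitted a mean for each of 4 groups over all 12 arrays (8 residual degrees of freedom) with eBayes and Benjamini-Hochberg adjustment at 0.05, and the code was tested on simulated data. Python 3.11.15, pandas 2.3.3 and matplotlib 3.10.9 made the tables and figures. The number of arrays limits the precision.

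The authors' deposited table gives log2 values. Adding an array constant to the log2 signal and subtracting each probe's median gives back its columns (100% of values within 0.01), and the origin of the constants is unknown. Medians of its columns lay at 0.56, -0.0069, 0.75 and 0.32 (IVF 1 to 4), -0.05, -0.72, -1.62 and -0.12 (siCont), and 0.01, 0.54, -0.18 and -0.22 (siXist).

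Members and lists were chosen with earlier results of these data known. Genes named beyond the members were Xist, up to 3 per list with the largest differences (all of a list with at most 7 measured genes), and the 3 features most like each member, except the marker genes, named after their values were seen. Nothing in the labels beyond separate embryos says how replicates arose, so p-values measure the spread between these embryos. The alternatives tried were quantile normalisation with or without normexp correction (offset 50), the authors' table, other filters, the mean of probes, a floor under dim signals, robust eBayes with a trend, a replicate block and leaving out each embryo. Same-numbered siCont and siXist embryos had correlated deviations of 0.004, -0.073, -0.081 and -0.153, so the numbers were not taken as pairs. One gene that the naming rule picked is not reported here.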

Additional observations from a re-analysis of the deposited data

Results flagged for a closer look

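In 31 combinations of a gene and a clone group, over 16 genes, 3 had an embryo far from the other 3 of its group (its gap to the nearest was more than 0.829 of the range), and chance gives about 1 in 20. All were genes of the Rhox cluster in siCont clones, each in a different embryo. Rhox2a stood at 0.26 in siCont clone 4, Rhox3a at -2.37 in siCont clone 2 and Rhox6 at -1.37 in siCont clone 1, and in each case that clone was the only siCont clone well above background. None of the 6 members had such an embryo.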

How the results depend on the processing

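Under 21 alternatives (20 for Tceal1, which a filter asking for 6 arrays removed), 0 members were called in siXist minus siCont clones, and Rhox5 kept its direction, from 1.01 to 2.93 (limma adjusted p from 0.219 to 0.657). With the replicate block, Rhox5 was 1.79 (limma adjusted p = 0.527) and no member's call changed. In female minus male, Rhox5 ranged from 7.53 to 13.08 (7.53 to 13.08 when embryos were left out) with limma adjusted p from 0.0179 to 1.00. It was called, as 1 member, with a floor under dim signals (9.19) and without male 1 (13.08, against a single male not well above background), so leaving out embryos gave 0 to 1 members called. A lone embryo left in a group is assumed to vary like the rest. Directions of siXist minus siCont turned for Bex4 with the authors' table (0.61), and for Tceal1 with quantile normalisation (0.03), with normexp and quantile normalisation (0.03) and with the authors' table (0.65), where both groups are at background, and the cause was not tested. Leaving out embryos gave -0.20 to 0.90 for Bex1, -0.06 to 0.85 for Bex2 and -1.10 to 0.32 for Bex4, each of which includes both signs. Without siXist clone 1, 56 features over the whole array were called in siXist minus siCont, against 2. All members kept their direction against male embryos under every alternative run. Values of these males entered the choice of the members, so the kept direction is a description and no independent support. The differences moved beyond the spread between embryos for Bex2, Bex4, Tceal1 and Tceal8 in some alternatives. Signals near background limit Tceal1 (well above it in 0 of the 8 clones), Bex2 (in 1 of the 4 IVF embryos) and Rhox5 and Bex1 (in 1 of the 2 males).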
